A study of Mus musculus with 2 samples.

Results

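Transcripts of 7 myelin genes, Mbp, Mobp, Mal, Mog, Mag, Cnp and Ugt8a, were followed in endothelial cells sorted from normal mouse brain. The genes were chosen by name, and every probe set annotated to one of them alone was taken, which gave 22 of the 45101 probe sets on the array and 7 of 18194 named genes. The cells came from the brain vasculature of C57BL/6 mice and were sorted by FACS on CD31, a surface protein of endothelium, and on CD133, the product of Prom1. Labeled cDNA made from RNA of CD31+CD133- cells was hybridized to 1 Affymetrix mouse genome array, and that of CD31+CD133+ cells to another of the same design. They are called here the arrays labelled Prom1- and Prom1+. The age and number of the mice behind each array were not given in the sources used here. With 1 array per population there was no replicate error, so the differences below carry no replicate check and no p-values.

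Myelin is the stack of membrane that oligodendrocytes wrap around axons in the brain. Its compact part is held together by small basic proteins such as the myelin basic protein, whose messenger RNA is carried out of the cell body and translated beside the growing sheath, while adhesion molecules face the axon or the outside and enzymes build its glycolipids. In adult brain these genes serve as markers of mature oligodendrocytes. Mal and Cnp are also transcribed in cells that make no myelin.

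Signals are given as multiples of the median signal of the same array, because the deposited values are log2 of that multiple. A floor of 1.67 times the median separated measured from unmeasured signals. It stands for 100 on a scale with a target of 500, that target being the average 2% trimmed mean of both arrays. The trimmed means themselves differed, 6.81 times the median for Prom1- and 9.94 times for Prom1+. Scaled by its own trimmed mean, Prom1- would thus have this floor above 100, and Prom1+ below 100. Probe sets for Bacillus genes, 27 in number, gave the level of signal without a mouse target, at most 0.276 times the median on the array labelled Prom1- and at most 0.234 times in the other. Where only 1 of the signals reached the floor the fold is a lower bound, and where neither did it is left out. Differences of at least 2-fold between signals raised to the floor were counted. The log2 ratios of probe sets of the same gene had an SD of 0.54 over 3930 genes, which describes this pair of arrays and not the spread between animals.

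The sort could be read from the arrays only in part. Pecam1, which encodes CD31, had 48.2 times the median on the array labelled Prom1- against 69.2 times in the other. Prom1 itself had 196 and 159 times, a log2 ratio of -0.30, so its signal was not higher in the array labelled Prom1+, and every direction below rests on the labels. The 14 endothelial markers measured were above the floor on both arrays. The hybridization controls, bacterial and phage transcripts added in equal amount by design of the assay, had a median of 112 times the array median on the array labelled Prom1- against 60.7 times in the other. The ratio of 3' to 5' signal was 2.13 and 1.72 for Actb and 2.45 and 1.62 for Gapdh in the same order, and the part of RNA quality in the results below was not tested.

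Signals of 13 of the 22 probe sets reached the floor on both arrays, of 2 on a single array, and of 7 nowhere. The array labelled Prom1+ was at least 2-fold lower in 8 of the 22 and at least 2-fold higher in 2, and the other 5 that reached the floor differed by less. Over all 45037 probe sets that are not controls, 2.47% were at least 2-fold lower and 12.9% at least 2-fold higher. All 8 lower probe sets belonged to Mbp and Mobp, and both higher ones to Cnp. In RNA of sorted cells, fewer cells of a type and less RNA per cell cannot be told apart. The counts depended on the scaling. With the hybridization controls set equal on both arrays, which raised every ratio by 1.02 on the log2 scale, none of the 22 was at least 2-fold lower and 5 were at least 2-fold higher, while 0.884% of all probe sets were lower and 36.1% higher.

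**Figure D1:**
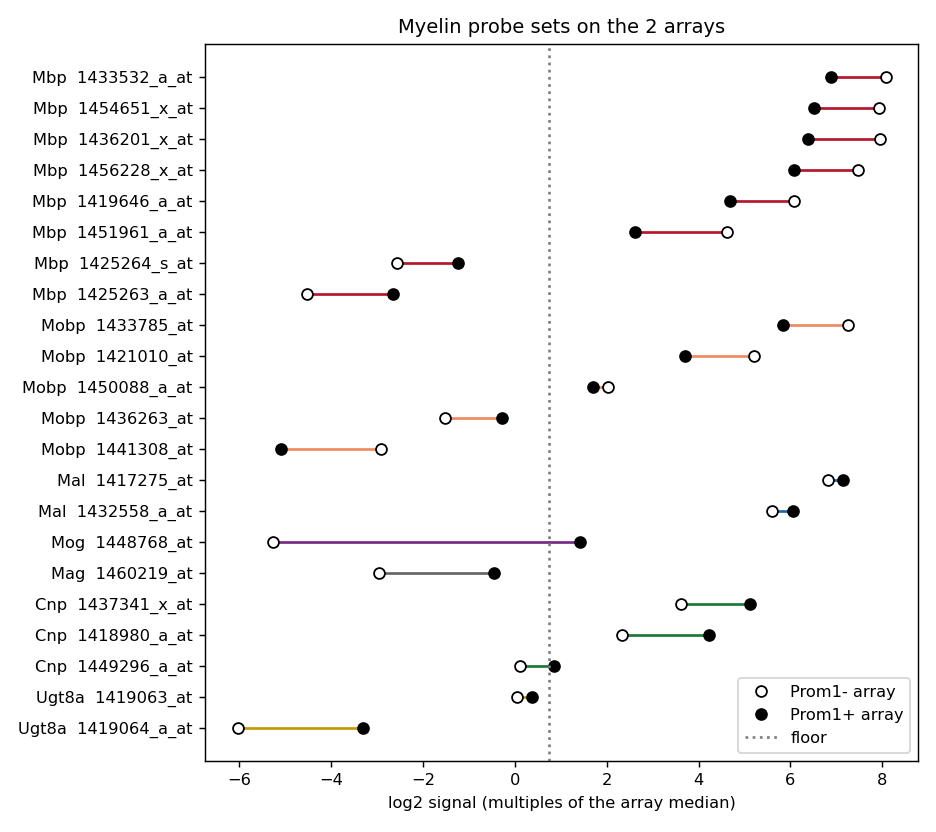
Log2 signal, in multiples of the array median, of the 22 probe sets on the array labelled Prom1- (open circles) and the array labelled Prom1+ (filled circles), with the floor as a dotted line. The 6 Mbp probe sets above the floor and the brightest 2 of Mobp lie further left in the array labelled Prom1+, those of Mal lie close together, and those of Cnp lie further right.

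The upstream sequences of 3 of the genes are shown because they stand for the 3 patterns found, lower (Mobp), little different (Mal) and higher (Cnp). They were taken from RefSeq on GRCm38.p6 and are the 250 bases before the annotated start, 5′ to 3′ on the strand of the gene. Mobp lies on the plus strand at chr9:120149492-120149741, Mal on the minus strand at chr2:127656696-127656945, and Cnp on the plus strand at chr11:100574689-100574938. Capitals mark the letters ACAAAG or their reverse complement, the core bound by SOX factors, to which Sox10 of oligodendrocytes belongs.
Mobp: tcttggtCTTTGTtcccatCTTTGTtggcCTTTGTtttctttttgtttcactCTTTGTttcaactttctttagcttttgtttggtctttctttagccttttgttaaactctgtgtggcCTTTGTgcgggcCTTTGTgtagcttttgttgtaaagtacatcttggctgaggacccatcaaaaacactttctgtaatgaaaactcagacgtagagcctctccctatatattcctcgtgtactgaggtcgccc
Mal: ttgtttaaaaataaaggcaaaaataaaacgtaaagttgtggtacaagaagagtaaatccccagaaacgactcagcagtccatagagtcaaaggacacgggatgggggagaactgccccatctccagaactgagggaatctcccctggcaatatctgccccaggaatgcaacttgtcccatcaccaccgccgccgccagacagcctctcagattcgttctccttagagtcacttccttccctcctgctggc
Cnp: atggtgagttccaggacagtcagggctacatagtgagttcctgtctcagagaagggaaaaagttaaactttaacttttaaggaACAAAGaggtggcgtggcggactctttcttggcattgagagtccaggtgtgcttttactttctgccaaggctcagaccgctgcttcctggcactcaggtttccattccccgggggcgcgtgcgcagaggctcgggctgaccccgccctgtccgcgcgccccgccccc

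The Mobp window of 300 bases held 6 matches to ACAAAG on either strand, all of them upstream of the start, Cnp held 1 and Mal held none. At least 1 match was found in 18.7% of the 32851 promoter windows of the RefSeq table, and the Mobp window was the only 1 with as many as 6. Windows of 6 of the 7 genes were kept, 8 in all. None of Mbp was kept, and any window of these genes on its chromosome was left out. Of the 8, 4 held a match, 1 of Mobp, 1 of Cnp and 2 of Mag that overlap. The letters CAGCTG, an E-box of the kind that OLIG factors bind, which reads the same on both strands, were in none of the 8 and in 16.3% of all windows. Matches of the 2 motifs cannot overlap each other, and a match describes letters only.

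Mbp, the myelin basic protein that joins the inner faces of compact myelin, was bright on both arrays and lower in the array labelled Prom1+. Its brightest probe set, 1433532_a_at, had 271 times the median on the array labelled Prom1- against 119 times in the other, 2.28-fold lower. The probe sets 1454651_x_at, with 244 and 91.6 times, and 1436201_x_at, with 248 and 84.1 times, were 2.66-fold and 2.95-fold lower. The 6 probe sets above the floor were all lower in the array labelled Prom1+, by 2.28- to 4.04-fold.

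Of the other 3, 1456228_x_at stood at 177 and 67.5 times the median, 2.62-fold lower. The probe set 1419646_a_at, at 68.0 and 25.8 times, was 2.63-fold lower. The dimmest, 1451961_a_at, at 24.7 and 6.11 times, was 4.04-fold lower and the furthest from the rest. The mean log2 ratio of the 6 was -1.49 ± 0.28 (SD over 6 probe sets of 1 gene, not over animals). The remaining pair, 1425264_s_at at 0.168 and 0.424 times and 1425263_a_at at 0.0436 and 0.160 times, was under the floor on both arrays, so the 8 probe sets annotated to Mbp did not report alike. Probe sets named _x_at or _s_at can take up signal of other transcripts, and the 3 of Mbp measured on both arrays and not so named were 2.28- to 4.04-fold lower.

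Mobp, the myelin-associated oligodendrocyte basic protein, another small basic protein of compact myelin, followed Mbp in its brighter probe sets. The probe set 1433785_at had 153 times the median on the array labelled Prom1- against 56.9 times in the other, 2.68-fold lower. The probe set 1421010_at, at 37.0 and 13.0 times, was 2.85-fold lower. The third above the floor, 1450088_a_at, had 4.06 and 3.26 times and was only 1.25-fold lower, so that the size of the Mobp difference depended on the probe set. The mean log2 ratio of the 3 was -1.08 ± 0.67 (SD over probe sets). The probe sets 1436263_at, at 0.350 and 0.827 times, and 1441308_at, at 0.132 and 0.0292 times, were under the floor on both arrays.

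Bright probe sets seldom differed in this direction. Of the 4239 probe sets with a mean log2 signal of 5 or more, 1.44% were at least 2-fold lower in the array labelled Prom1+, whereas 6 of the 8 such probe sets of the myelin genes were, 5 of Mbp and 1 of Mobp. The ratio between the arrays also shifted with signal. The 1000 probe sets nearest in mean signal had a median log2 ratio of -0.09 beside the brightest Mbp probe set, whose neighbors were the brightest 1000, and of 0.84 beside the dimmest measured one. After loess correction of this shift the 6 Mbp log2 ratios ran from -2.90 to -0.91 and the 3 of Mobp from -2.33 to -1.04. By the same correction 8 of the 22 were lower by 2-fold or more, against 4.26% of all, and none was at least 2-fold higher, against 3.06% of all. The lower ones then included 1450088_a_at of Mobp and no longer the brightest Mbp probe set.

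**Figure D2:**
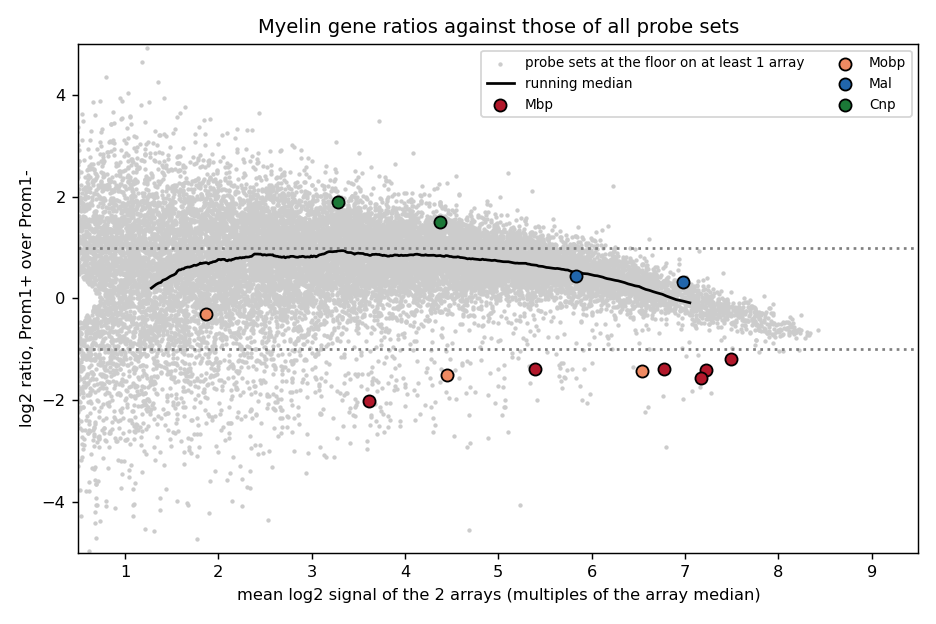
Log2 ratio of the array labelled Prom1+ over the array labelled Prom1- against the mean log2 signal of both, in multiples of the array median, drawn from a mean of 0.5 up. Probe sets that reached the floor somewhere are grey, their running median over 1000 probe sets measured on both arrays is black, dotted lines mark 2-fold, and colored points are the myelin probe sets measured on both arrays. The Mbp and brighter Mobp points lie below -1, those of Mal near the running median and those of Cnp above it.

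Mal, a small proteolipid of membrane rafts found in myelin and also in epithelia and T cells, differed little. Its probe set 1417275_at had 113 times the median on the array labelled Prom1- against 141 times in the other, 1.25-fold higher, and 1432558_a_at had 48.9 and 66.6 times, 1.36-fold higher. Both log2 ratios were smaller than the SD of 0.54 given above, which is a spread between probe sets of a gene and not the error of a ratio. Probe sets of like signal had median log2 ratios of -0.05 and 0.51 beside them, and after loess those of Mal were 0.34 and -0.06.

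Cnp, the cyclic nucleotide phosphodiesterase of the non-compact loops of myelin, went the other way from Mbp. The probe set 1437341_x_at had 12.3 times the median on the array labelled Prom1- against 35.0 times in the other, 2.84-fold higher, and 1418980_a_at had 5.04 and 18.7 times, 3.70-fold higher. The third, 1449296_a_at, had 1.08 and 1.81 times, with the first under the floor, and was at least 1.08-fold higher. Like many probe sets of this signal, those of Cnp lay in a range where the array labelled Prom1+ was higher in general, by 1.79-fold and 1.91-fold at the median of the neighbors of the 2 measured on both arrays. After loess their log2 ratios were 0.67 and 0.98, each under 2-fold.

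The adhesion and glycolipid genes of myelin were near or under the floor. Mog, the myelin oligodendrocyte glycoprotein of the outermost layer, had 1 probe set, 1448768_at, with 0.0261 times the median on the array labelled Prom1-, under the highest Bacillus signal, and 2.66 times in the other, at least 1.59-fold higher. This bound depended on the floor, with a log2 ratio of 1.67 at a floor of 50 in place of 0.67 at 100, and no fold at a floor of 200, which neither signal reached. Mag, the myelin-associated glycoprotein that faces the axon, had 0.128 and 0.729 times by its probe set 1460219_at. Ugt8a, the enzyme that makes galactosylceramide, had 1.03 and 1.30 times by 1419063_at and 0.0152 and 0.100 times by 1419064_a_at. No fold is given for Mag or Ugt8a, and a level under the floor does not show that the transcript was absent.

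The measured genes therefore did not move as a block. The mean log2 ratio of Mbp was lower than that of Mal by 1.88 and lower than that of Cnp by 3.19, and the ratios of the probe sets of Mbp and of either gene did not overlap. For Mobp the differences from Mal and Cnp were -1.47 and -2.78, again without overlap. After loess the differences of Mbp were -1.81 and -2.50 and those of Mobp -1.81 and -2.49. By the brightest probe set 2 of the 7 genes, Mbp and Mobp, were at least 2-fold lower, where 2.83% of all 18194 genes were, and 1, Cnp, was at least 2-fold higher, where 16.7% were. When all probe sets of each gene were averaged, those under the floor included, neither Mbp nor Mobp was lower by 2-fold, at log2 ratios of -0.72 and -0.84. The median log2 ratio was -1.19 over the 15 probe sets measured on 1 array or both, against 0.60 over all such probe sets, but 0.32 over the 5 such genes, against 0.66 over all such genes, because 9 of the 15 belong to Mbp and Mobp. By the brightest probe set the order from lowest to highest ratio was Mobp, Mbp, Mal, Cnp. That this order was the same for each factor applied to a whole array is fixed by arithmetic, but it was also the order by quantile normalization and by loess. By the mean log2 ratio of the probe sets measured on both arrays, Mbp at -1.49 lay below Mobp at -1.08.

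**Figure D3:**
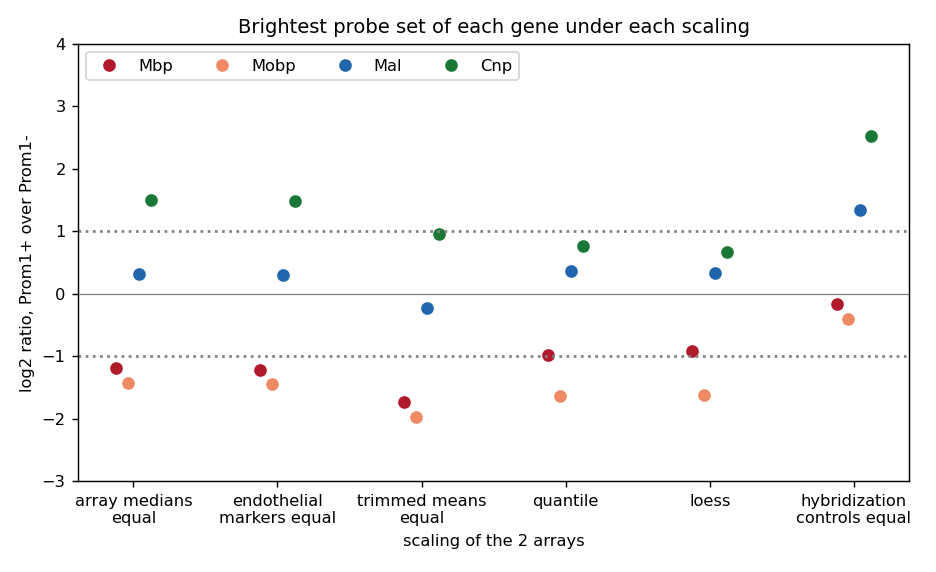
Log2 ratio of the array labelled Prom1+ over the array labelled Prom1- for the brightest probe set of Mbp, Mobp, Mal and Cnp under 6 scalings of the arrays, with 2-fold as dotted lines. Mbp runs from -1.74 to -0.17 and Mobp from -1.97 to -0.40, both nearest 0 with the hybridization controls equal, while Cnp stays above 0 and Mal crosses 0 with trimmed means equal.

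Other genes of the myelin membrane varied in direction. For this and the lists below, 2.83% of all 18194 genes, measured or not, were at least 2-fold lower and 16.7% at least 2-fold higher. After loess 4.26% of all probe sets were at least 2-fold lower and 3.06% at least 2-fold higher. Of 14 other myelin membrane genes, 8 were measured on at least 1 array. Among them 1 was lower by 2-fold or more and none was higher by as much. The lower gene was Gpm6b, a membrane glycoprotein that neurons and astrocytes also express, with 33.8 and 12.9 times the median, 2.61-fold lower. Cldn11, the tight junction protein of myelin, had 3.99 and 2.57 times and was 1.55-fold lower. Pllp, the plasmolipin of myelin and epithelia, had 43.7 and 82.5 times and was 1.89-fold higher, and Tspan2, a tetraspanin, had 7.15 and 12.7 times and was 1.77-fold higher. The tetraspanin Cd9, which endothelium expresses as well, had 34.1 and 39.8 times. The median log2 ratio of the 8 was -0.01, against 0.66 over all genes measured. After loess it was -0.80, against 0.04 over all genes, and 3 of the 8 were lower by 2-fold, Gpm6b at a log2 ratio of -2.22, Cldn11 at -1.24 and Jam3, a junction adhesion molecule, at -1.13, while Tspan2 was at -0.08 and Pllp at 0.44.

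Genes of sphingolipid and myelin lipid synthesis stayed near or above equality. Of 9, 7 reached the floor, 1 was at least 2-fold higher and none lower, with a median log2 ratio of 0.73, near the 0.66 of all genes. The higher gene was the acid sphingomyelinase Smpd1, at 12 and 30.2 times, 2.53-fold higher. After loess its log2 ratio was 0.49, under 2-fold, and the median of the 7 was 0.24. The sphingomyelin synthase Sgms1 had 182 and 164 times and the ceramide synthase Cers2 15.1 and 24.9 times. Gal3st1 and Fa2h, which make sulfatide and hydroxylate the fatty acids of myelin lipids beside Ugt8a, were under the floor on both arrays, and Aspa, which releases acetate for lipid synthesis in oligodendrocytes, had 0.310 and 1.77 times, the second just above the floor.

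Other genes of mature oligodendrocytes had a median log2 ratio of -0.46 over the 19 of 28 that reached the floor. Of these 5 were lower by 2-fold or more and none was higher by as much. After loess the median was -0.85 and 7 were lower, against 4.26% of all probe sets. Gsn, the actin-severing gelsolin, stood at 33.3 and 7.69 times the median, 4.33-fold lower, and the small heat shock protein Cryab had 67.1 and 16.8 times, 3.99-fold lower. The other 3, named after their values were seen, were Ppp1r14a, an inhibitor of myosin phosphatase, 3.56-fold lower, Bcas1, a gene of newly myelinating oligodendrocytes, 2.46-fold lower, and Carns1, which makes carnosine, 2.34-fold lower. Gsn, Cryab and Ppp1r14a are also genes of smooth muscle. The carbonic anhydrase Car2 had 52.3 and 87.9 times, 1.68-fold higher, and the deacetylase Sirt2 21.6 and 39.4 times, 1.82-fold higher. Apod, the apolipoprotein D, had 109 and 71.4 times, and Ndrg1, Qdpr and Sept4 differed by at most 1.10-fold.

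The transcription factors of the lineage were scarcely measured. Of 9 on the array, Sox10, Olig1, Olig2, Myrf, Nkx2-2, St18, Sox8 and Zfp536 were under the floor on both arrays, and Nkx6-2 had 3.17 and 2.02 times the median. Of 8 precursor genes 5 were under the floor on both arrays by every probe set, and Vcan, which encodes the matrix proteoglycan versican, was so by its brightest, while another just reached the floor with 1.70 times on the array labelled Prom1-. Cspg4, which encodes NG2 of precursors and of pericytes, had 10.9 and 2.34 times and was 4.65-fold lower, and Pdgfra had 0.687 and 2.80 times, at least 1.67-fold higher. Of the myelin genes of Schwann cells, the glia of peripheral nerves, Pmp22, which endothelium also transcribes, had 86.4 and 104 times, Egr2 had 18.1 and 13.2 times, and Ncmap, Drp2 and Pmp2 were under the floor on both arrays. Over the 5 lists of other oligodendrocyte and myelin genes of the brain 37 of 68 genes reached the floor by their brightest probe set. Of the 68, 7 were at least 2-fold lower and 1 was higher, against 2.83% and 16.7% of all 18194 genes, and 29 differed by less.

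**Figure D4:**
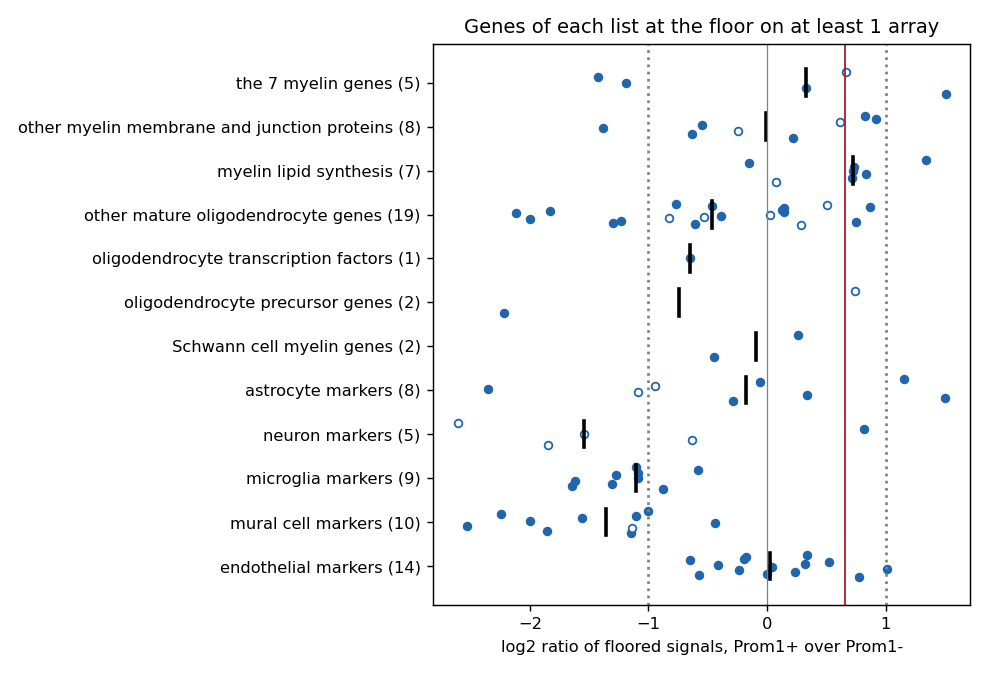
Log2 ratio of floored signals, array labelled Prom1+ over array labelled Prom1-, for genes at the floor on both arrays (filled) or on 1 (open), by list, with the number of such genes in parentheses. Black bars are list medians, the red line is the median of all such genes at 0.66, and dotted lines mark 2-fold. The mural and microglial genes all lie left of 0 and the endothelial markers around it.

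Markers of mural cells and microglia were lower alongside Mbp in the same pair of arrays, and their part in the Mbp difference was not tested. Of 10 mural cell markers 9 were at least 2-fold lower in the array labelled Prom1+, with a summed signal of 1035 times the median on the array labelled Prom1- against 351 times in the other, and Kcnj8 was the exception. Of 10 microglial markers 7 were at least 2-fold lower, with sums of 300.0 and 129 times and a median log2 ratio of -1.10 over the 9 that reached the floor. Over all 18194 genes 2.83% were at least 2-fold lower. Ctss had 79.1 and 32.6 times and was 2.42-fold lower, C1qb was 2.47-fold lower and Csf1r 2.13-fold lower, against 2.28-fold for the brightest Mbp probe set. After loess all 10 mural and 9 of the 10 microglial markers were at least 2-fold lower, against 4.26% of all probe sets. With the hybridization controls equal, 2 of the mural and none of the microglial markers were at least 2-fold lower, against 0.884% of all probe sets. By that scaling 8 of the 14 endothelial markers were at least 2-fold higher, against 36.1% of all probe sets.

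Astrocyte markers were mixed. Of 11, 8 reached the floor, 2 were lower and 2 were higher by 2-fold, or 3 and none after loess, with sums of 122 and 131 times the median. The calcium-binding S100b, which oligodendrocytes can express too, had 15.9 and 3.11 times and was 5.11-fold lower, and Gjb6 was at least 2.13-fold lower. The 2 higher ones were Fgfr3, with 4.52 and 12.8 times, 2.83-fold higher, and Sox9, with 3.64 and 8.11 times, 2.23-fold higher. The connexin Gja1 had 67.0 and 84.5 times, and Slc1a3 had 18.5 and 17.7 times, 1.05-fold lower. The defining markers Gfap, Aqp4 and Aldh1l1 were under the floor on both arrays. Of 12 neuron markers 7 were under the floor on both, 3 were lower by 2-fold and none was higher, with a median log2 ratio of -1.55 over the 5 measured, and the same counts held after loess. The summed signal of the 12 was 72.7 and 84.5 times, most of it from Stmn2. The synaptic genes Syt1, at 10.2 and 0.0152 times, and Snap25, at 4.89 and 0.649 times, were at least 6.09-fold and 2.92-fold lower, and Map2, of dendritic microtubules, at least 3.60-fold. Stmn2, of growing axons, had 45.1 and 79.5 times and was 1.76-fold higher. With the hybridization controls equal 3 of the 12 were lower and 1 was higher, against 0.884% and 36.1% of all probe sets. Of the endothelial markers 1 of 14 differed by 2-fold, and their median log2 ratio was 0.02.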

How the data were processed

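Amplified, biotin-labeled cDNA was hybridized to 1 array for each population. Scaling to a target of 500 and GeneSpring normalization were done by the authors, and MAS5 is named in the submitters' processing notes without a version. Each deposited value is a log2 ratio of a signal to its array's median: both columns have a median of 0, and none is below -6.64, or 0.01 times the median. Which step divided by the median is not given in the sources used here. Detection calls and unscaled signals were not used here, and the number of arrays limits the precision.

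The platform table lists 35890 of the 45101 probe sets, of which 34958 have 1 gene symbol. Identifiers of 34754 were matched to current symbols of GRCm38.p6, used for names only. The brightest probe set, by the mean of both signals, stood for a gene. The floor of 100 corresponds to 1.67 times the median when the target is taken as the average 2% trimmed mean. The 64 control probe sets were left out of counts. No significance test was made. ACAAAG and CAGCTG were searched on both strands. Other floors, thresholds and scalings, quantile normalization and loess (span 0.2) were tried as alternatives, and the scripts for the fold rule and loess were tested on simulated data. Named genes were all 7 with every probe set and, from the other lists, the 4 brightest and the 2 with the largest ratio each way, or any gene of a list of 10 or fewer, besides defining markers of other cell types. The 7 genes, the lists and the rules were chosen with earlier results of these data known. Python 3.11.15, numpy 2.4.6, pandas 2.3.3, statsmodels 0.14.6 and matplotlib 3.10.9 were used.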

Additional observations from a re-analysis of the deposited data

How the results depend on the processing

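The count of 8 myelin probe sets at least 2-fold lower in the array labelled Prom1+ ran from 7 to 9 with floors of 50 and 200, no floor, a threshold of 1.5-fold, equal trimmed means, equal endothelial markers, quantile normalization and loess. It was 1 at a threshold of 3-fold, 5 without the probe sets named _x_at or _s_at, and 0 with the hybridization controls equal. The count of 2 genes lower was 1 with quantile normalization or loess, and 0 at 3-fold, with the mean over the probe sets of a gene or with the hybridization controls equal. The count of 2 probe sets higher was 0 with loess, 1 at 3-fold, with equal trimmed means, with quantile normalization or without the _x_at and _s_at probe sets, 5 with the hybridization controls equal and 8 with no floor. The median log2 ratio of -1.19 was -1.83 with equal trimmed means, -0.32 without the _x_at and _s_at probe sets and -0.0103 with the hybridization controls equal. It turned to 0.33 with no floor, which lets in the 7 probe sets that were otherwise unmeasured. Apart from that setting, the causes were not tested. No paired analysis was possible because there was 1 array per population, and no array could be left out. Signals under the floor limit what can be said of Mog, Mag and Ugt8a.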
